A study of Mus musculus with 46 samples.

Results

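Cycling epithelial cells of the mouse colon were taken from 3 single-cell matrices, deposited under the names CT, Ime and Met. A cell was counted as cycling when it had 200 or more detected genes, at least 1 molecule (UMI) of the epithelial adhesion gene Epcam, and at least 1 UMI of 3 or more of 6 proliferation genes (Mki67, Top2a, Cdk1, Ccnb1, Ube2c and Birc5). The members were thus chosen by measured values. The rule took 1992 of 25661 barcodes, out of 18012 Epcam-positive cells: 473 in matrix CT, 321 in Ime and 1198 in Met. The choice used measured values, so high levels of these 6 genes, and of genes that rise with them, are part of the definition and not a result.

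The study gave mice metformin or the structurally related imeglimin. The single-cell sample was colon of male C57BL/6J mice after 12 weeks, with no genetic modification named. The labels' treatment entry lists control, metformin and imeglimin together for 1 GEO sample, whose title names control alone, so the link from a matrix to a treatment rests on the deposited name of the matrix. The number of mice and the drinking-water dose of this 12-week experiment are not given in the sources used here. Tissue was fixed in formaldehyde, dissociated, hybridized with pairs of gene probes and read as UMIs (10x Fixed RNA Profiling). There was 1 matrix per name, so no test was run. Intervals in brackets are exact 95% intervals that cover counting error only, and a difference between matrices cannot be told apart from a difference between the animals or preparations behind them.

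The colonic epithelium is renewed from stem cells at the base of the crypts. Their daughters divide in the lower crypt, then leave the cycle and mature into absorptive colonocytes, mucus-secreting goblet cells and rarer types as they move up. Genes for DNA replication peak in S phase and genes for the mitotic spindle in G2 and mitosis. Mki67 encodes a coat protein of mitotic chromosomes, Top2a the topoisomerase that untangles DNA, Cdk1 with its partner cyclin B1 (Ccnb1) the kinase that drives entry into mitosis, Ube2c the ubiquitin-conjugating enzyme of the anaphase-promoting complex, and Birc5 (survivin) a subunit of the chromosomal passenger complex. Promoters of mitotic genes are known to carry the CHR element (TTTGAA), bound by the DREAM and MuvB complexes, often near CCAAT boxes, while promoters of replication genes more often carry E2F sites.

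The promoters of 4 of the genes that chose the cells show this layout. Each line gives the last 150 bases before the annotated start, 5′ to 3′ on the gene's strand, from RefSeq on GRCm38.p6. Capitals mark the CHR word TTTGAA, read on either strand. They also mark the CCAAT box on either strand and the E2F-type word TTTCGCGC. The windows are chr7:135716380-135716529 (minus strand) for Mki67, chr11:99024190-99024339 (minus) for Top2a, chr10:69352913-69353062 (minus) for Cdk1 and chr2:164769779-164769928 (plus) for Ube2c.
Mki67: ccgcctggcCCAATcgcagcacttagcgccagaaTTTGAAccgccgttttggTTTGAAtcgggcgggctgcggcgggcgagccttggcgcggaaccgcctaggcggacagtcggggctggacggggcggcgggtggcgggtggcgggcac
Top2a: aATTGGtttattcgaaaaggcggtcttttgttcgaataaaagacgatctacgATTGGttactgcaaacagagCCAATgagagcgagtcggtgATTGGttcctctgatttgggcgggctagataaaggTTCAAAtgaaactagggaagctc
Cdk1: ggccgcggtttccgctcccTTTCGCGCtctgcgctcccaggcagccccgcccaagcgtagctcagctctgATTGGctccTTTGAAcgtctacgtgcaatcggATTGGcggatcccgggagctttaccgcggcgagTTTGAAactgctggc
Ube2c: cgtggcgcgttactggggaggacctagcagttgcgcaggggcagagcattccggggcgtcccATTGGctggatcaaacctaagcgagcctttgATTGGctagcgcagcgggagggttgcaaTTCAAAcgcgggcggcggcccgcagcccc

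TTTGAA on either strand lay in the 250 bases before the start of 4 of the 6 rule genes and CCAAT in 5 of 6. Of all 32851 RefSeq promoter windows of that length, 16% held TTTGAA and 33.8% held CCAAT. In Cdk1 the TTTGAA copies lay 71 to 66 and 15 to 10 bases before the start and in Ube2c 29 to 24 bases. In Top2a they lay 179 to 174 bases, outside the letters shown, and 23 to 18 bases before it. Those of Mki67 lay farther off than in Cdk1, at 116 to 111 and 98 to 93 bases. Of the further G2/M genes 51 had a window, 20 (39.2%) with TTTGAA and 38 (74.5%) with CCAAT, against 14.6% and 39.5% of the 14085 measured genes with a window. Of the 33 S phase genes with a window, 4 (12.1%) held TTTGAA, but 10 (30.3%) held 1 of the E2F-type words TTTGGCGC, TTTCCCGC, TTTCGCGC or TTTGCCGC, which were in 3.07% of measured genes and in 1 (1.96%) of the G2/M genes. The words were searched on both strands, none of these words overlapped TTTGAA or CCAAT in the letters shown, and a match describes the sequence, not a bound site.

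The matrices differed in depth, which bears on every share below. They held 8001, 4732 and 12928 barcodes with 42090952, 13705111 and 225071856 UMIs (CT, Ime, Met). The median cycling cell had 8875 UMIs in CT, 3817 in Ime and 28633 in Met, and the median Epcam-negative cell 996.5, 770 and 1851.5. No full barcode of 24 bases was shared between matrices (0). Its first 16 bases, the part that marks a droplet, were shared by 625 barcodes of CT and Ime, 1686 of CT and Met and 1007 of Ime and Met, and by 4, 19 and 5 pairs of cycling cells.

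At the deposited depth, cycling cells were 9.38% (8.59 to 10.2) of the Epcam-positive cells in CT, 12.4% (11.1 to 13.7) in Ime and 11.5% (10.9 to 12.2) in Met. Matrix CT was lowest, and the intervals of Ime and Met overlapped. The rule asks for detected genes, and deeply read cells met it more often. Each Epcam-positive cell was therefore also thinned at random to 1600 UMIs before its rule genes were counted. How far detection accounts for the link with depth was not tested. Cells that met the rule after thinning had a median of 6240, 3383 and 18003 UMIs before it, against 4075, 2494 and 5021 in cells with no rule gene. Thinning left out 820, 639 and 1123 shallower cells, 17, 29 and 15 of them cycling. At that fixed depth the shares were 5.38% (227 of 4220 cells, 4.72 to 6.10) in CT, 9.51% (186 of 1955, 8.25 to 10.9) in Ime and 2.88% (267 of 9255, 2.55 to 3.25) in Met. Met moved from above CT to below it, Ime was highest by both measures, and the intervals at fixed depth did not overlap.

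**Figure D1:**
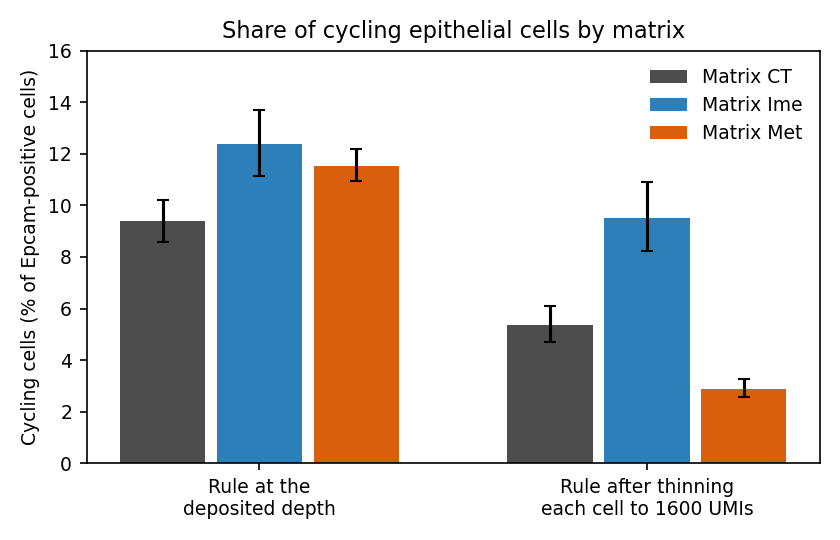
Bars give cycling cells as a percentage of Epcam-positive cells in matrices CT, Ime and Met, with the rule at the deposited depth (left) and after thinning every cell to 1600 UMIs (right); error bars are exact 95% binomial intervals for counting error. Met stood at 11.5% before thinning and 2.88% after it, while Ime was highest in both.

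Within each matrix the share of cells that met the rule rose with the number of UMIs per cell. Among cells under 2000 UMIs it was 3.32% in CT, 5.55% in Ime and 1.96% in Met. Among cells with 40000 or more UMIs it was 41.2% in CT and 42.4% in Met, and 5 of only 10 Epcam-positive cells in Ime. Between 2000 and 5000 UMIs, where all 3 matrices had over 1000 epithelial cells, it was 6.4% (5.26 to 7.69) in CT, 14.4% (12.3 to 16.7) in Ime and 3.44% (2.73 to 4.27) in Met, the order seen at the fixed depth. The same order came from levels that need no count of cells. Over all Epcam-positive cells, the 6 rule genes together stood at 356 CPM (UMIs of the genes per 1000000 UMIs) in CT, 520 in Ime and 272 in Met. The G2/M genes outside the rule stood at 1670, 2199 and 1324 CPM and the S phase genes at 1197, 1437 and 815 CPM. More cycling cells and more of these RNAs per cycling cell cannot be told apart in those sums.

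**Figure D2:**
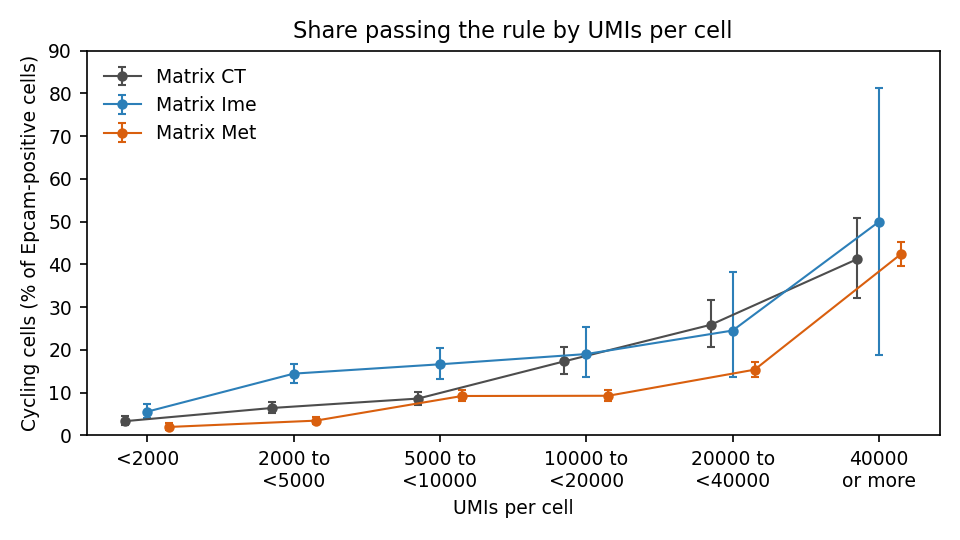
Points give the percentage of Epcam-positive cells that met the rule (y axis) in 6 ranges of UMIs per cell (x axis) for each matrix, with exact 95% binomial intervals. The share rose with depth in every matrix, from 1.96% to 42.4% in Met, and Ime lay above CT and Met between 2000 and 10000 UMIs.

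The label of cycling cells held in CT and Ime and in part of Met. Members that showed 5 or 6 of the rule genes were 286 of 473 in CT (60.5%), 166 of 321 in Ime (51.7%) and 514 of 1198 in Met (42.9%). The other 684 cells of Met (57.1%) showed 3 or 4. In Met, cells with 3 rule genes had 583 CPM of the S phase genes and 554 CPM of the further G2/M genes, close to the 455 and 445 CPM of epithelial cells with none. Cells of Met with 2 rule genes, just outside the rule, had 498 and 489 CPM. The 272 cells of Met with 4 rule genes had 730 and 912 CPM. Cells with 4 had 3341 and 5031 CPM in CT and 4350 and 8699 CPM in Ime. In CT, cells with 3 rule genes had 3045 and 2895 CPM and cells with 2 had 1433 and 1224 CPM, against 624 and 399 CPM with none. In Ime, cells with 3 had 5198 and 7356 CPM and cells with 2 had 2267 and 3000 CPM, against 703 and 438 CPM. The 3-gene cells of Met thus carried the counts that chose them in a median of 26687.5 UMIs per cell, without the levels of 3-gene cells in CT and Ime. Cells of Met with 5 rule genes had 2008 and 4179 CPM and cells with 6 had 2558 and 6406 CPM, so their S phase level stayed under that of the 3-gene cells of CT.

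Depth and level moved together among the members. In Met, 481 of 1198 members (40.2%) had over 40000 UMIs and held 85.6% of all UMIs of the members, against 47 (9.94%) holding 39.0% in CT and 5 (1.56%) holding 15.6% in Ime. The median level of the 6 rule genes per member was 2289 CPM in CT, 3320 in Ime and 649 in Met. In Met it fell from 4006 CPM in members under 2000 UMIs to 136 CPM in members of 40000 or more. Sums over members of Met are therefore mostly sums over cells in which the rule genes are a small part of the RNA. Whether such cells hold more than 1 cell was not tested, and no doublet caller was run. The cells that met the rule at 1600 UMIs, called depth-matched cells below, were matched in the depth at which the 6 rule genes were counted. They were not matched in the depth at which Epcam was read. Their levels are sums of all their UMIs, with a median of 6240, 3383 and 18003 UMIs per cell and 6, 1 and 63 cells over 40000. They numbered 227, 186 and 267, which was 48.0%, 57.9% and 22.3% of the members. Their median rule gene level was 3500 CPM in CT, 4045 in Ime and 2923 in Met, and 71.8%, 62.9% and 79.0% of them showed 5 or 6 rule genes at the deposited depth.

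**Figure D3:**
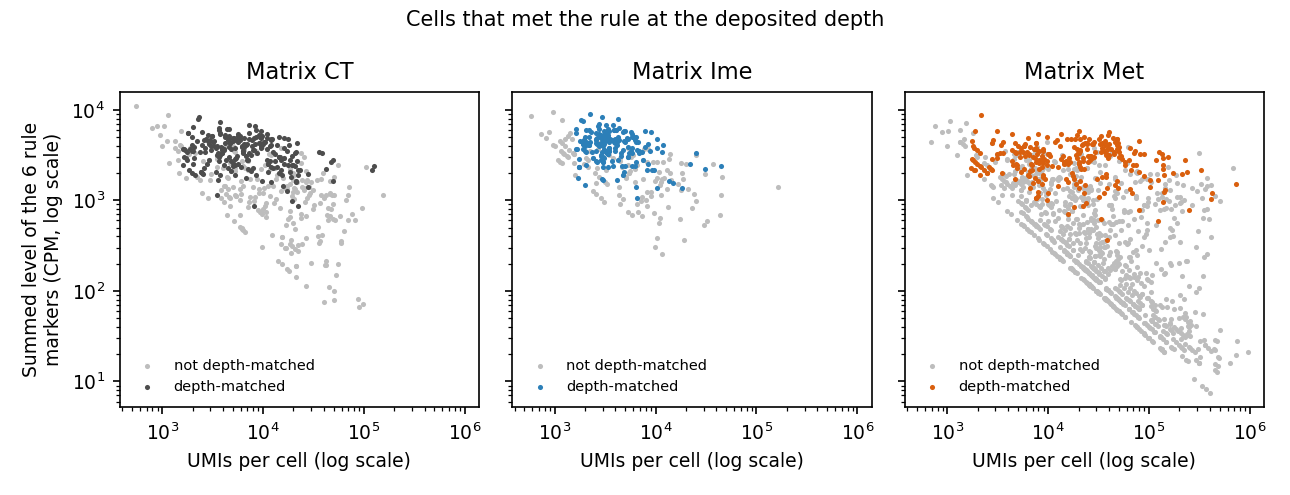
Each point is a cell that met the rule, by its UMIs (x axis, log scale) and the summed level of the 6 rule genes in CPM (y axis, log scale), in 1 panel per matrix; coloured points are the depth-matched cells. Grey points of Met extend to low levels at high UMIs, while the depth-matched cells of the 3 matrices lie in the same range of levels.

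Among the rule genes, Ccnb1 was the least detected. It had a UMI in 3.38% of members in CT, 0.623% in Ime and 9.10% in Met, against 92.6%, 91.9% and 92.7% for Mki67. In depth-matched cells Ccnb1 was found in 12 of 227, 1 of 186 and 53 of 267 cells, so the rule in practice rested on 5 genes. Cdk1 stood at 570 CPM in CT, 772 in Ime and 345 in Met in the depth-matched cells, and Ube2c at 825, 967 and 542 CPM. Mki67 stood at 667, 793 and 653 CPM, Top2a at 713, 754 and 598 CPM and Birc5 at 325, 381 and 285 CPM. All 5 were highest in Ime and lowest in Met, by different amounts: Met lay 1.65-fold (1.55 to 1.76) under CT for Cdk1 and 1.02-fold (0.965 to 1.08) for Mki67. The last of these turns with median-of-ratios scaling, which raises Met against CT by 0.09 on the log2 scale. Since these genes chose the cells, the values are a description. Epcam stood at 2244, 2129 and 1988 CPM. Cells with 3 or more rule genes but no Epcam UMI were 35 of 2960 in CT (1.18%), 28 of 2136 in Ime (1.31%) and 24 of 2550 in Met (0.941%).

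The genes of the mitotic machinery made up the profile of the depth-matched cells. This again follows from the choice, and the values show its extent with no test. Of 8412 genes whose mean level reached 20 CPM, 19.6% in CT, 22.8% in Ime and 27.1% in Met were at least 2-fold higher than in epithelial cells with no rule gene, and 5.98%, 7.58% and 6.19% were at least 2-fold lower. Among the 61 G2/M genes that passed this filter, 60 were higher in each matrix. Among 37 S phase genes that passed, 36, 35 and 37 were higher. The summed G2/M level was 29.8-fold, 28.9-fold and 21.3-fold that of the cells with no rule gene, and the S phase level 6.03-fold, 5.72-fold and 6.93-fold. The largest contrasts that held in every matrix included Neil3, a DNA glycosylase, at 176, 171 and 88.3 CPM against 0.543, 0.786 and 0.884 CPM. Kif2c, a microtubule-depolymerizing kinesin, stood at 188, 181 and 123 CPM against 1.27, 1.44 and 1.42 CPM. Iqgap3, Knl1, Nuf2, Mxd3, Pimreg, Parpbp, Pif1 and Sapcd2 completed the first 10. Knl1 and Nuf2 belong to the kinetochore, which ties chromosomes to the spindle.

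By role, the A- and B-type cyclin genes Ccna2 and Ccnb2 stood at 276, 306 and 301 CPM and at 338, 367 and 328 CPM in CT, Ime and Met. Cdc20, the activator of the anaphase-promoting complex, stood at 350, 340 and 334 CPM, and Plk1, a kinase of mitotic entry and exit, at 234, 307 and 214 CPM. These were between 39.9-fold and 156-fold over the cells with no rule gene. Replication genes had smaller contrasts. Pcna, the sliding clamp of DNA polymerase, stood at 220, 304 and 161 CPM, which was 3.91-fold, 4.27-fold and 3.75-fold, and the helicase subunit Mcm2 at 56.7, 65.6 and 63.9 CPM, which was 4.92-fold, 5.82-fold and 7.48-fold. Tk1 and Rrm2, which make DNA precursors, stood apart from these at 22.1-fold to 37.8-fold and 20.2-fold to 51.5-fold. The G1/S regulators as a list were 1.91-fold, 2.12-fold and 2.30-fold over, among them Ccnd1 (cyclin D1) at 78.9, 59.9 and 79.3 CPM and Myc at 125, 196 and 97.0 CPM.

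The balance of the late and early cycle differed by a few percentage points between the matrices, and its order moved with the depth read. G2/M genes gave 68.0% (67.6 to 68.3) of the UMIs of both lists in all members of CT, 69.9% (69.4 to 70.5) in Ime and 66.4% (66.3 to 66.6) in Met. Over all UMIs of the depth-matched cells the share was 75.9% (75.5 to 76.4), 75.9% (75.2 to 76.6) and 75.1% (74.8 to 75.3). With each of these cells read at 1600 UMIs it was 80.0% (79.0 to 80.9) in CT, 77.6% (76.5 to 78.7) in Ime and 78.5% (77.5 to 79.5) in Met. There CT lay above Ime, and the interval of Met overlapped both. In epithelial cells with no rule gene it was 39.0%, 38.4% and 49.4%. Read in the thinned cells, the median cell had 22, 22 and 19 UMIs of G2/M genes and 4, 5 and 4 of S phase genes. Cells with more S phase than G2/M UMIs were 17 of 227 in CT (7.49%), 17 of 186 in Ime (9.14%) and 19 of 267 in Met (7.12%), with overlapping intervals. The rule genes are themselves mostly genes of G2 and mitosis, so this share describes the cells that the rule chose and is no estimate of phase lengths.

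Cell types of the crypt could be read in the same cells. The crypt base and Wnt target genes summed to 2759, 2589 and 2360 CPM in depth-matched cells, which was 2.59-fold, 2.89-fold and 2.57-fold the level of cells with no rule gene. Of 16 such genes that passed the filter, 13, 14 and 13 were at least 2-fold higher, against 19.6%, 22.8% and 27.1% of all genes. After thinning, Lgr5, the stem cell receptor for R-spondins, had a UMI in 14 of 227 cells of CT (6.17%), 16 of 186 of Ime (8.6%) and 13 of 267 of Met (4.87%). In epithelial cells with no rule gene it was found in 1.06%, 1.03% and 0.782%. In Epcam-negative cells with a UMI of the leukocyte gene Ptprc, where Lgr5 reads can be taken as free RNA, it was found in 1 of 137 (0.730%), 0 of 22 (3 counts of that total would be 13.6%) and 1 of 487 (0.205%). The leukocytes counted here had 1600 or more UMIs. With shallower cells included, Ptprc-positive Epcam-negative cells had a median of 1007, 788 and 2167 UMIs at the deposited depth. The depth-matched cells had 6240, 3383 and 18003. Smoc2, another crypt base gene, had a UMI in 18.9%, 23.7% and 20.2% of the depth-matched cells, and Axin2, a Wnt target, in 21.1%, 29.0% and 17.6%. At 1600 UMIs each of these 3 genes was unseen in most cycling cells, and a cell without a UMI may still express them.

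Genes of mature absorptive cells were low. The list summed to 10861, 8430 and 15265 CPM, which was 0.259-fold, 0.216-fold and 0.270-fold the level of cells with no rule gene. In each matrix 18 of 22 genes that passed the filter were at least 2-fold lower, against 5.98%, 7.58% and 6.19% of all genes. Krt20, a keratin of the upper crypt and surface, stood at 51.4, 24.9 and 221 CPM against 1043, 835 and 2143 CPM. Mxd1, an antagonist of Myc, stood at 175, 137 and 199 CPM against 2290, 2754 and 2298 CPM. The cell cycle inhibitor Cdkn1a stood at 88.2, 73.5 and 127 CPM against 968, 1121 and 995 CPM. In contrast, among all members of Met the absorptive list summed to 45059 CPM, against 15177 CPM in CT and 10092 CPM in Ime, and only 1 of the 24 genes that passed was at least 2-fold under the cells with no rule gene, against 19 in CT and 20 in Ime. Over all 8372 genes compared in this way, 5.46%, 7.67% and 0.991% were at least 2-fold lower in the members of CT, Ime and Met, and 14.7%, 19.6% and 7.81% higher.

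**Figure D4:**
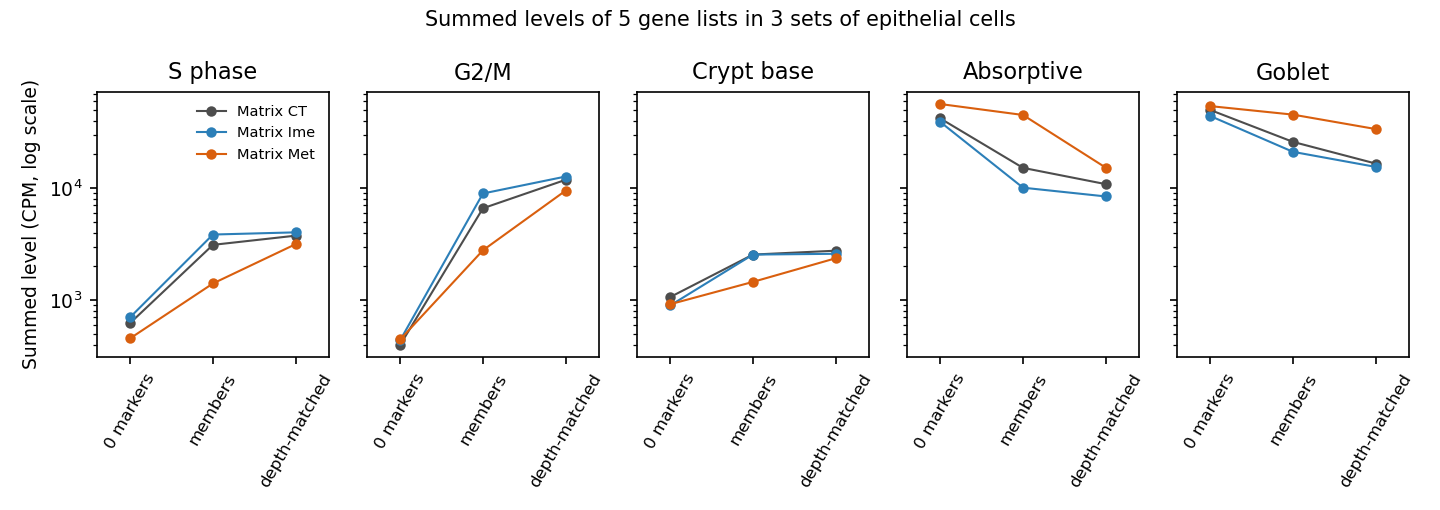
Summed level in CPM (y axis, log scale) of 5 gene lists in epithelial cells with no rule gene, in all cells that met the rule (members) and in depth-matched cells, 1 panel per list and 1 line per matrix. All members of Met lie near the cells with no rule gene for the absorptive and goblet lists, and the depth-matched cells lie closer together for the absorptive list (8430 to 15265 CPM) but not for the goblet list (15480 to 33732 CPM).

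Secretory genes were present in part of the cells. Atoh1, which commits cells to the secretory fate, had a UMI after thinning in 12.8%, 13.4% and 14.6% of depth-matched cells, and Spdef, a goblet cell transcription factor, in 11.0%, 12.4% and 12.0%. In Ptprc-positive Epcam-negative cells the shares of Atoh1 were 1.46%, 0% (0 of 22) and 1.23%. The main mucin gene Muc2 had a UMI in 72.7%, 46.8% and 92.1% of the cycling cells, but also in 55.5%, 36.4% and 90.3% of those leukocytes. Zg16, a goblet cell lectin, had one in 37.0%, 20.4% and 85.0%, and in 32.1%, 31.8% and 88.7% of the leukocytes. In Met the shares of both lay close to those of the leukocytes. The same held in Met for Slc26a3, the chloride-bicarbonate exchanger of colonocytes (29.6% against 31.0% of leukocytes), and for Krt20 (28.5% against 25.7%). By level Muc2 stood apart, with 18232 CPM in the depth-matched cells of Met against 3765 CPM in its Epcam-negative cells. Zg16 stood at 2348 against 2044 CPM, Slc26a3 at 249 against 300 CPM and Krt20 at 221 against 232 CPM. The shares of Atoh1 were above those of leukocytes in CT and Met, and in Ime the 22 leukocytes left after thinning allowed no such reading.

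Markers of other lineages were under their levels in Epcam-negative cells, but many cells of Met held a few of them. In depth-matched cells of CT, Ime and Met the 11 T and NK cell genes summed to 18.2, 14.7 and 23.7 CPM, the 3 pan-leukocyte genes to 19.1, 10.2 and 58.9 CPM and the 10 fibroblast genes to 203, 181 and 263 CPM. In Epcam-negative cells these lists stood at 436, 275 and 494, at 1124, 734 and 1154, and at 11127, 7676 and 14816 CPM. The B and plasma cell list summed to 251, 199 and 308 CPM in depth-matched cells against 14628, 18440 and 9777 CPM, the macrophage list to 136, 116 and 208 against 1349, 1033 and 1877 CPM, and the smooth muscle list to 64.3, 89.3 and 248 against 5709, 4591 and 8502 CPM. At the deposited depth at least 1 UMI of these 3 lists was found in 91.8%, 81.3% and 87.3% of the depth-matched cells of Met, against 47.1%, 51.1% and 35.2% in CT and 34.4%, 35.5% and 16.7% in Ime. Such shares rise with depth, and these cells had a median of 6240 UMIs in CT, 3383 in Ime and 18003 in Met. The shares are thus not compared at 1 depth. The part of these other-lineage UMIs in the results was not tested. Chga, a marker of enteroendocrine cells, had a UMI in 1, 1 and 2 of the depth-matched cells after thinning, and Dclk1, a marker of tuft cells, in 0 (3 counts of the 227 cells would be 1.32%), 1 and 1. Heat shock chaperone genes were 1.97-fold, 2.27-fold and 2.57-fold the level of cells with no rule gene. In each matrix 9 of 16 genes were at least 2-fold higher, against 19.6%, 22.8% and 27.1% of all genes. Among them was the mitochondrial chaperone Hspd1, at 168, 179 and 208 CPM against 55.0, 47.3 and 38.0 CPM.

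The matrices were then compared gene by gene, Ime with CT and Met with CT. Both comparisons share the CT matrix. Among all members, of 8372 genes whose mean level reached 20 CPM, 35 (0.418%) were at least 2-fold higher and 114 (1.36%) at least 2-fold lower in Ime than in CT. In Met 406 (4.85%) were higher and 1195 (14.3%) lower. The median log2 ratio over all genes was 0.06 for Ime and -0.36 for Met. With median-of-ratios scaling, which removes that shift, the Met counts over the same 8372 genes turned to 748 higher and 388 lower. Over the 7985 genes that passed the filter on scaled levels they were 735 and 348. In depth-matched cells, of 8412 genes, Ime had 47 (0.559%) higher and 123 (1.46%) lower, and Met 140 (1.66%) higher and 170 (2.02%) lower, or 183 and 106 with median-of-ratios scaling. The median log2 ratio was then 0.03 and -0.09. The direction of the Met split thus depended on the scaling, and single genes are given below from the depth-matched cells. In epithelial cells with no rule gene, Met had 3.84% higher and 2.92% lower of 7665 genes, and Ime 0.522% and 0.861%.

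The ratios of cell cycle genes in Met changed with the choice of cells. Among all members of Met, 52 of 60 G2/M genes and 24 of 36 S phase genes were at least 2-fold lower than in CT, with median log2 ratios of -1.38 and -1.09, and 34 and 11 of them with median-of-ratios scaling. In depth-matched cells 0 of 61 G2/M genes and 1 of 37 S phase genes (Slbp, the histone mRNA binding protein, at 311 CPM in CT and 139 in Met) were at least 2-fold lower. None was higher, or 1 S phase gene with median-of-ratios scaling. The median log2 ratios were -0.40 and -0.23, with 6 of 61 and 14 of 37 ratios over 1. Between Ime and CT, 0 of 37 S phase genes and 1 of 61 G2/M genes reached 2-fold in the depth-matched cells. That gene was Cks1b, a subunit of cyclin-dependent kinases, at 21.7 CPM in CT, 47.5 in Ime and 30.5 in Met. The median log2 ratios were 0.10 for S phase and 0.11 for G2/M.

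Among the 15 G1/S regulators that passed the filter in depth-matched cells, 2 genes reached 2-fold in each comparison. Over all genes 0.559% were at least 2-fold higher and 1.46% lower in Ime, and 1.66% and 2.02% in Met. Ccne2 (cyclin E2), which acts at the start of S phase, stood at 24.8 CPM in CT, 54.3 in Ime and 12.2 in Met, and with median-of-ratios scaling its Met ratio fell under 2-fold. Ccnd3 (cyclin D3) stood at 33.2, 14.7 and 77.4 CPM, the opposite order. After thinning Ccnd3 had a UMI in 4.41%, 1.61% and 9.74% of the cycling cells, and in 4.93%, 2.50% and 11.4% of epithelial cells with no rule gene. The order of the matrices for Ccnd3 was thus the same in cells with no rule gene. A cell with no rule gene detected may still be in the cycle.

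Tfrc, the transferrin receptor through which dividing cells take up iron, was higher in both Ime and Met than in CT. It stood at 164 CPM (148 to 182) in CT, 355 (317 to 396) in Ime and 464 (451 to 477) in Met. Matrix CT was the lowest, and Ime lay 2.16-fold (1.86 to 2.52) and Met 2.83-fold (2.54 to 3.15) above it. After thinning, 46 of 227 cells of CT (20.3%), 75 of 186 of Ime (40.3%) and 111 of 267 of Met (41.6%) had a UMI of Tfrc, against 4.38%, 9.09% and 5.54% of the Ptprc-positive Epcam-negative cells. No single cell carried the difference: without its top cell in each matrix Tfrc stood at 158, 344 and 455 CPM. Epithelial cells with no rule gene had 74.1, 187 and 143 CPM, so CT was lowest outside the cycling cells as well. Fth1, the ferritin heavy chain that stores iron, stood at 950, 532 and 981 CPM, and was 1.78-fold (1.61 to 1.98) higher in CT than in Ime. Among the 12 iron genes that passed the filter Tfrc alone was at least 2-fold away from CT, in Ime and in Met. Of all genes 0.559% were at least 2-fold higher in Ime and 1.66% in Met.

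Few genes outside the interferon and secretory genes below were higher in Ime. Set, a histone chaperone and phosphatase inhibitor, stood at 188 CPM in CT, 365 in Ime and 98.1 in Met, a ratio of 1.94 (1.67 to 2.24) for Ime in depth-matched cells and 2.15 (1.96 to 2.36) in all members. Traip, a ubiquitin ligase of the replication machinery, stood at 58.1, 101 and 33.1 CPM. The mitochondrial gene mt-Nd6, a complex I subunit, stood at 552, 980 and 200 CPM, and mt-Co1, of complex IV, at 717, 1249 and 580 CPM. Ime was the highest and Met the lowest for each of these genes, and each was under 2-fold for Ime against CT in depth-matched cells. In cells with no rule gene the order was the same for Set, with a UMI after thinning in 9.76%, 16.3% and 5.0% of them, and for mt-Nd6, in 60.9%, 69.5% and 35.8%. Leukocytes had mt-Nd6 in 62.8%, 86.4% and 32.2%. The Met ratio of mt-Nd4, another complex I subunit, went the other way, with 43.0 CPM in CT, 27.1 in Ime and 131 in Met. Of 13 mitochondrially encoded genes 4 were at least 2-fold higher and 1 (mt-Nd6) lower in Met than in CT, against 1.66% and 2.02% of all genes.

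Mature absorptive genes were lower in the cycling cells of Ime than in those of CT. Of 22 that passed the filter, 8 were at least 2-fold lower and 0 higher in depth-matched cells, with a median log2 ratio of -0.54. Among all 8412 genes 1.46% were lower and 0.559% higher. Car1, a carbonic anhydrase, stood at 188 CPM in CT, 33.9 in Ime and 126 in Met. Guca2a, the precursor of guanylin, stood at 259, 76.9 and 365 CPM. Aqp8, a water channel, stood at 264, 73.5 and 400 CPM. Ime was the lowest for each, 5.54-fold (3.83 to 8.32), 3.37-fold (2.62 to 4.40) and 3.6-fold (2.78 to 4.72) under CT. Ime was under CT in cells with no rule gene too. After thinning 53.2% and 29.1% of them had a UMI of Car1 in CT and Ime, 49.9% and 30.4% one of Guca2a and 43.1% and 33.5% one of Aqp8. In CT the share of cycling cells with Car1 (20.7%) was close to that of leukocytes (19.0%). In Met 11 of the 22 were at least 2-fold higher than in CT and 0 lower, with a median log2 ratio of 0.98. Among all genes 1.66% were higher and 2.02% lower. Krt20 stood 4.29-fold (3.56 to 5.22) and Slc9a3, a sodium-proton exchanger, 7.51-fold (5.83 to 9.83) above CT. Without its top cell in each matrix Krt20 stood at 48.2 CPM in CT and 176 in Met, and Slc9a3 at 23.8 and 149 CPM. The Krt20 shares given above for cycling cells and leukocytes of Met lay close together. Those of Slc9a3 after thinning did too, with 21.7% and 19.5%. The part of free RNA in these ratios was not tested.

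Genes lower in Met than in CT differed in function. Ascl2, a transcription factor of crypt base stem cells, stood at 81.6 CPM in CT, 80.2 in Ime and 25.3 in Met. Lgr5 stood at 47.9, 59.9 and 21.2 CPM. CT lay 3.23-fold (2.66 to 3.92) and 2.26-fold (1.77 to 2.86) above Met. These were the 2 of 16 crypt base genes that reached 2-fold, against 2.02% of all genes that were lower. Both rest on few cells: after thinning Ascl2 had a UMI in 15 of 227, 18 of 186 and 9 of 267 cells, and the intervals of the Lgr5 shares given above overlapped. Averaged over cells instead of summed, Lgr5 stood at 37.3, 65.5 and 31.4 CPM. Among all members the log2 ratio of Lgr5 for Met against CT was -1.38, and it turned to 0.68 when cells with a UMI of another lineage's marker were left out. That setting kept 275 of 473 members in CT but only 191 of 1198 in Met. A deeply read cell is more likely to hold such a UMI, and depth and lineage were not separated here.

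Other genes lower in Met were seen in many cells. Mlxipl, the glucose-responsive transcription factor ChREBP, stood at 380 CPM in CT, 442 in Ime and 139 in Met, with a UMI after thinning in 48.5%, 45.2% and 21.0% of cells. Tuba1b, an alpha-tubulin of the spindle and cytoskeleton, stood at 474, 609 and 194 CPM. H1f3, a linker histone made in S phase, stood at 235, 258 and 76.7 CPM. Met was the lowest for all 3, and CT lay 2.74-fold (2.52 to 2.99), 2.45-fold (2.27 to 2.64) and 3.06-fold (2.74 to 3.43) above it. Ankle1, a nuclease of dividing cells, stood at 387, 477 and 135 CPM, and Clca3a2 at 210, 271 and 79.5 CPM. Foxd2, a forkhead transcription factor, stood at 369, 380 and 130 CPM and Mrfap1 at 391, 477 and 131 CPM. For these genes CT and Ime lay together and Met apart. In epithelial cells with no rule gene Met was also lowest after thinning for 6 of these 7 genes. There 26.7%, 26.9% and 8.75% of cells had a UMI of Foxd2, 28.6%, 29.3% and 9.24% one of Mrfap1, 9.6%, 12.9% and 3.97% one of Mlxipl and 4.63%, 3.97% and 1.42% one of Clca3a2. Tuba1b was found in 5.16%, 7.06% and 3.66% and H1f3 in 1.75%, 2.28% and 1.11%. Ankle1, in 0.265%, 0.368% and 0.556%, was near 0 in each.

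**Figure D5:**
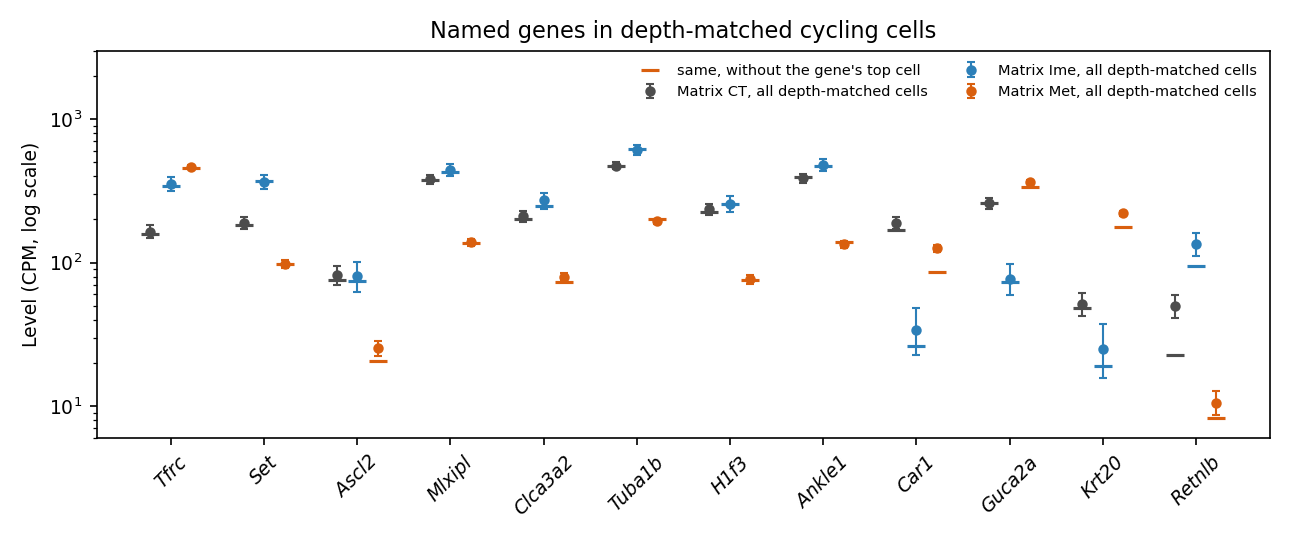
Level in CPM (y axis, log scale) of 12 named genes in depth-matched cycling cells of each matrix; points are summed levels with exact 95% Poisson intervals for counting error, and dashes are the levels without the cell that gave the gene most UMIs. Tfrc lies lowest in CT (164 CPM), Ascl2 to Ankle1 lowest in Met, and Car1 and Guca2a lowest in Ime (33.9 and 76.9 CPM).

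Secretory products differed in several directions. Sycn, a protein of secretory granules, stood at 1932 CPM in CT, 800 in Ime and 1044 in Met, with CT 2.41-fold (2.23 to 2.62) above Ime. Reg4, a lectin of deep crypt secretory cells, stood at 1042, 1820 and 595 CPM, and 19.8%, 29.6% and 17.6% of cells had a UMI after thinning, against 1.46%, 0% (0 of 22) and 3.49% of the leukocytes. Spink4 stood at 2062, 2330 and 3476 CPM, none of them 2-fold apart from CT. Muc2 and Zg16 were highest in Met, with 6813, 4815 and 18232 CPM and 413, 367 and 2348 CPM, and their shares in leukocytes of Met are given above. Retnlb and Ang4, antimicrobial proteins of goblet and deep crypt cells, were highest in Ime and lowest in Met. Retnlb stood at 49.7, 134 and 10.6 CPM, of which 55.4%, 30.3% and 22.4% came from 1 cell per matrix, and at 22.7, 94.5 and 8.26 CPM without those cells. Ang4 stood at 181, 253 and 55.4 CPM, and at 122, 196 and 37.5 CPM without its top cells.

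Interferon-induced genes lay above CT in Ime and Met, in the cycling cells and in epithelial cells with no rule gene. Of 15 that passed the filter in depth-matched cells, 5 were at least 2-fold higher in Ime and 3 in Met, against 0.559% and 1.66% of all genes. With median-of-ratios scaling the count in Ime was 4. All 15 ratios were over 1 in both matrices. The filter takes the mean of the 3 matrices, so a gene low in CT could pass through Ime or Met, which favours such ratios. Isg15 and Oasl2, given below, are such genes. In epithelial cells with no rule gene 8 and 15 of 26 were at least 2-fold higher, against 0.522% and 3.84% of all genes. There 26 and 25 ratios were over 1, under the same filter. Single cells weighed heavily in Ime. Isg15, a ubiquitin-like protein, stood at 4.43 CPM in CT, 66.7 in Ime and 42.0 in Met, but 1 cell gave 86.4% of the UMIs in Ime, and without the top cells it stood at 3.58, 9.37 and 37.6 CPM. Oasl2, an antiviral sensor of the OAS family, stood at 5.32, 82.5 and 54.0 CPM, and at 4.47, 25.8 and 46.1 CPM without them. Irgm2, an interferon-inducible GTPase outside that list, stood at 14.2, 76.9 and 22.9 CPM, and at 13.3, 57.4 and 19.2 CPM without them. The cycling cells held less of these genes than the others. The 34 measured list genes, taken with no filter, summed to 491, 1032 and 978 CPM, against 1346, 2271 and 3817 CPM in epithelial cells with no rule gene. In the cycling cells 1 cell per matrix gave 5.42%, 32.9% and 12.0% of the UMIs of the list. Of the MHC class II genes 4 of 4 were at least 2-fold higher in Met, and 5 of 5 in the cells with no rule gene. Among all genes 1.66% and 3.84% were. In Epcam-negative cells, which include the antigen-presenting cells, the list stood at 9323, 6415 and 10452 CPM, against 253, 238 and 666 CPM in cycling cells. The top 5 cycling cells gave 64.8%, 42.2% and 63.4% of the UMIs of that list.

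In Ime and Met most UMIs of the gut hormone genes came from single cells. Gcg, the proglucagon gene, stood at 2.22 CPM in CT, 33.9 in Ime and 481 in Met. Of these UMIs 93.3% in Ime and 94.6% in Met came from 1 cell each, and without the top cells it stood at 1.34, 2.33 and 28.2 CPM. Insl5, a hormone of colonic L cells, stood at 11.5, 40.7 and 556 CPM, and at 11.3, 6.98 and 70.0 CPM without them, so Ime moved from above CT to below it. Pyy stood at 6.21, 12.4 and 97.5 CPM, and at 4.94, 4.65 and 29.2 CPM without them, with the same turn in Ime. None of the 3 genes had a UMI after thinning in more than 11 cells of a matrix.

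Outside these groups, the genes lower in Ime included 2 of the circadian clock. Dbp, a clock output transcription factor, stood at 25.7 CPM in CT, 3.39 in Ime and 75.9 in Met, and CT lay 7.58-fold (2.47 to 37.8) above Ime, where it had 3 UMIs. Nr1d1, the clock repressor REV-ERB alpha, stood at 114, 36.2 and 168 CPM, with CT 3.16-fold (2.18 to 4.72) above Ime. Ime was lowest and Met highest for both, and no source used here gives the hour of tissue collection. In epithelial cells with no rule gene 10.1%, 3.75% and 21.3% had a UMI of Dbp after thinning and 27.9%, 19.9% and 39.9% one of Nr1d1, the same order. Erg28, which tethers enzymes of sterol synthesis, stood at 96.6, 32.8 and 135 CPM, Gal3st1, a sulfotransferase for glycolipids, at 66.5, 19.2 and 88.2 CPM, and Myorg, a glycosidase, at 38.1, 7.91 and 28.6 CPM.

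Nuclear genes of the respiratory chain, the integrated stress response and glycolysis, processes on which the drugs are known to act, held 0 genes past 2-fold in Ime. In depth-matched cells 0 of 20 genes of the integrated stress response were at least 2-fold away from CT in Ime, and 1 (Eif4ebp1, an inhibitor of translation) was higher in Met. The median log2 ratios were -0.03 and -0.03. Of 35 nuclear genes of complex I, 0 reached 2-fold in either matrix, or 1 in Met with median-of-ratios scaling. Of 32 genes of complexes II to V, 4 (5 with that scaling) were higher in Met and 0 in Ime, and of 18 genes of glycolysis and hexose uptake 3 and 0. The median log2 ratios of these last 2 lists in Met were 0.30 and 0.11, against -0.09 over all genes, of which 1.66% were at least 2-fold higher. The stress hormone gene Gdf15 stood at 36.4 CPM in CT, 36.2 in Ime and 34.2 in Met, with a ratio of CT to Met of 1.06 (0.824 to 1.35) and of CT to Ime of 1.01 (0.661 to 1.56). Hk2, a hexokinase that commits glucose to use in the cell, stood at 186, 184 and 179 CPM. Mthfd2, an enzyme of mitochondrial folate metabolism, stood at 23.5, 17.0 and 22.0 CPM. With 1 matrix per name, intervals that include 1 do not show that levels were alike in the animals.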

How the data were processed

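The single-cell sample was measured by probe hybridization and sequencing of fixed colon cells. The authors deposited whole-number UMI counts per gene and barcode in 3 matrices, and their headers name Cell Ranger 9.0.0. The submitters' processing notes name mm10 and GRCm39 without their roles, and promoter coordinates come from RefSeq (GRCm38.p6) alone. No per-sample column was left unused (0). Of 19065 symbols, 5 occurred under 2 gene IDs and were summed.

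Cells with 200 or more genes, Epcam of 1 or more UMI and at least 3 of the 6 rule genes were taken. The members, the 31 gene lists and the rule for named genes were chosen with earlier results of these data known. Levels are UMI sums over cells per 1000000 UMIs of those cells (CPM), and probes differ in efficiency, so a gene is compared only with itself. Genes with a mean of at least 20 CPM over the matrices were compared, and called at 2-fold. A gene low in CT could thus pass through its level in Ime or Met. Genes named are part of the 10 higher and 10 lower with the ratio bound farthest from 1 per comparison, the 2 farthest per list, and a set list, among them Tfrc, Hk2 and Gdf15. Against cells with no rule gene, the 10 higher and 10 lower with the largest smallest ratio over the matrices were taken. Predicted models and receptor segments were left out. Spink4, Ccna2, Ccnb2, Cdc20, Mcm2, Tk1, Hspd1, Smoc2, Atoh1, Spdef and Dclk1 fall outside that rule and were chosen after their values were seen. Intervals are exact (Clopper-Pearson, Poisson and conditional binomial, 95%), and a limit beside a count of 0 is 3 counts of the total. Thinning to 1600 UMIs was 1 random draw, and 9 listed genes are not in the matrices. Other rules, filters, folds and scalings were also tried. Python 3.11.15, numpy 2.4.6, scipy 1.17.1 and pandas 2.3.3 were used, and the counting steps were tested on simulated data.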

Additional observations from a re-analysis of the deposited data

How the results depend on the processing

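The share of cycling cells (9.38%, 12.4% and 11.5% in CT, Ime and Met) became 12.6%, 16.7% and 20.7% with 2 of 6 rule genes, 7.66%, 9.95% and 7.57% with 4, 10.6%, 14.0% and 13.9% with 2 or more Epcam UMIs, 10.5%, 14.6% and 12.7% with 1000 or more genes, and 5.38%, 9.51% and 2.88% at 1600 UMIs. It was 8.95% in Met without cells that had a UMI of another lineage's marker, 8.17% in CT and 9.06% in Met without the top 5% of UMIs, and 10.9% in Met without barcodes whose first 16 bases occur in another matrix. So CT and Met changed order between settings, and the order of Ime and Met did with 2 of 6 rule genes. Leaving out cells with a UMI of another lineage's marker kept 275 of 473 members in CT, 255 of 321 in Ime and 191 of 1198 in Met. That setting also changes the depth of the cells.

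Genes higher in Ime (35) numbered 135 with members thinned, 21 with median-of-ratios scaling, 17 at 50 CPM, 488 without a filter, 494 at 1.5-fold and 62 without shared barcodes; genes lower in Ime (114) numbered 285 thinned, 54 at 50 CPM, 672 without a filter and 578 at 1.5-fold. Genes higher in Met (406) numbered 113 without cells holding another lineage's marker, 735 with median-of-ratios scaling, 1380 without a filter, 836 at 1.5-fold and 140 in depth-matched cells. Genes lower in Met (1195) numbered 688 with 4 of 6 rule genes, 645 thinned, 140 without cells holding another lineage's marker, 449 without the top 5% of UMIs, 348 with median-of-ratios scaling, 496 as a mean over cells, 676 at 50 CPM, 2952 without a filter, 2998 at 1.5-fold and 170 in depth-matched cells.

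The G2/M share (68.0%, 69.9% and 66.4%) was 66.6%, 68.8% and 65.0% with 2 of 6 rule genes, 69.5%, 71.1% and 68.0% with 4, 73.8%, 73.6% and 71.3% thinned, 71.8%, 70.8% and 72.1% without cells holding another lineage's marker, 72.9%, 73.1% and 69.3% without the top 5% of UMIs, and 75.9%, 75.9% and 75.1% in depth-matched cells. With list genes of at least 20 CPM it was 68.4% in CT and 66.9% in Met, and without shared barcodes 69.3% and 66.9%. The cause of these moves was not tested, except that a filter or fold changes the genes counted.

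Of ratios that were at least 2-fold among all members, 3 turned direction. Without cells holding another lineage's marker the log2 ratio of Met to CT was 0.055 for Birc5 and 0.68 for Lgr5, and Insl5 in Ime against CT was -0.70 in depth-matched cells without its top cell. Of the other gene values, which include smaller ratios that changed sign, 717 moved beyond counting error and 1079 did not. Leaving out shared barcodes, the depth-matched sums and leaving out top cells were chosen after seeing the data. No paired analysis was possible because the matrices come from 1 GEO sample with no replicate numbers and no test was run. The depth of Ime, with 10 epithelial cells of 40000 or more UMIs and 22 leukocytes at 1600 UMIs, limits what can be read there.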
